A study of Mus musculus with 8 samples.

Results

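The response of Ly6Clo macrophages of the infarcted heart to interleukin 21 (IL-21) was read from 4 of the 8 libraries of the study, chosen by their titles: 2 from cells cultured with IL-21 and 2 from cells cultured without it. All cells came from wild-type C57BL/6 mice, 8 weeks of age. Macrophages were sorted from the heart 3 days after myocardial infarction into a subset with high and a subset with low surface Ly6C (Ly6Chi and Ly6Clo) and kept in culture for 24 hours, with IL-21 at 100 ng/mL or with none. The other 4 libraries are the Ly6Chi cells under the same 2 conditions, and serve here for the spread between libraries and for 1 comparison. Mice that lack the IL-21 receptor are named in the study's design and are not analysed here. Libraries were made with a QuantSeq kit, which sequences transcripts at their 3' ends. Nothing in the labels ties a replicate to its own mouse or culture, so the p values below measure only the spread between these libraries, which may be technical.

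IL-21 is a cytokine made mainly by activated CD4+ T cells. It binds a receptor built of its own chain, Il21r, and the gamma chain Il2rg that several interleukin receptors share, and the kinases JAK1 and JAK3 on these chains activate STAT3 above all, with STAT5 to a lesser degree. STAT3 enters the nucleus and switches on a set of genes that includes Socs3, whose product blocks further signalling. In the infarcted heart, Ly6Chi monocytes and macrophages clear debris and secrete inflammatory mediators, and Ly6Clo macrophages, which become prominent later, are known for repair and scar formation.

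Deposited totals in the Ly6Clo libraries were 257385 counts (without IL-21, number 1), 483593 (without, number 2), 269064 (with, number 1) and 444670 (with, number 2), so that 3 counts corresponded to 6.204 to 11.7 CPM, counts scaled to a common library size. The sorted cells carried macrophage transcripts in every library: 18 of 20 macrophage identity genes were above 0 in all 4, and their summed level was between 28937 and 32281 CPM of the total. Itgam, which encodes the CD11b integrin chain, was listed at 0 in all 8 libraries. Ly6c2, the gene of the sorting antigen, had 3 to 34 counts per Ly6Clo library and 75 to 134 per Ly6Chi library, and the 3' end of its transcript is shared with Ly6c1. Of the resident macrophage markers, Lyve1 and Timd4 were at 0 in all 4 Ly6Clo libraries, whereas the C1q genes and Pf4 were among the well-covered genes. In bulk samples, fewer cells of a type and less RNA per cell cannot be told apart.

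IL-21 raised 7 genes in Ly6Clo cells and lowered none past the test, among 5256 genes with enough counts. The 7 were Socs3, the feedback inhibitor of STAT signalling; Arg1, the arginine-degrading enzyme of alternatively activated macrophages; Fgl2, a fibrinogen-like protein with immune and clotting functions; Tgfbi, a matrix protein named for its induction by TGF-beta; Cd38, an enzyme that consumes NAD; Ppbp, a CXC chemokine best known from platelets; and Tmem8, a membrane protein gene that RefSeq lists as Pgap6. They make up 0.133% of the genes tested by edgeR's quasi-likelihood test at a Benjamini-Hochberg adjusted p under 0.05, and the share called lower was 0%. An unadjusted p under 0.05 was reached by 185 genes in either direction, and neither DESeq2 nor limma-voom called a gene lower. All 7 called genes lay higher in both libraries with IL-21 than in both without, which was true of 15% of all genes tested, while 14.5% lay lower in both. The calls rest on the same levels, so this separation is a description and not separate support.

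Socs3 (ENSMUSG00000053113, chromosome 11, 117966079 to 117970047, minus strand, GRCm38) had the greatest fitted change of the 7. Its level was 8.30 and 15.4 CPM without IL-21 (2 and 7 counts, numbers 1 and 2) and 160 and 123 CPM with it (40 and 50 counts). The lower stimulated library was thus well above the higher unstimulated one, although the unstimulated level rests on few counts. The log2 fold change was 3.41 (SE 0.46; edgeR quasi-likelihood adjusted p = 0.00714). Within the libraries numbered 1 the log2 difference was 3.46, with an exact 95% counting interval of 2.32 to 7.36, and within those numbered 2 it was 2.55, with an interval of 1.86 to 4.39.

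Arg1 (ENSMUSG00000019987, chromosome 10, 24915221 to 24927484, minus strand) was the most abundant of the 7 genes. It stood at 598 and 617 CPM without IL-21 and at 2031 and 2354 CPM with it, a 3.61-fold change. The groups were far apart and each was tight, with SDs of 13.3 CPM around 607 without and 228 around 2192 with IL-21 (n = 2 each). The log2 fold change was 1.85 (SE 0.23; edgeR adjusted p = 0.00486), and the difference was 1.75 within number 1 (counting interval 1.49 to 2.04) and 1.92 within number 2 (1.74 to 2.13). The rest of the arginine and polyamine list did not share this change: of its other 8 members tested none passed, 3 were higher and 4 lower within both numbers, and the median log2 fold change was -0.11. Mtap, which salvages methylthioadenosine from polyamine synthesis, was at 62.3 and 52.7 CPM without and 19.99 and 14.8 CPM with IL-21, and did not pass (log2 fold change -1.72, SE 0.50, edgeR adjusted p = 0.773). Sat1, the enzyme that acetylates polyamines for export, was at 154 and 184 CPM without and 204 and 229 CPM with IL-21.

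**Figure D1:**
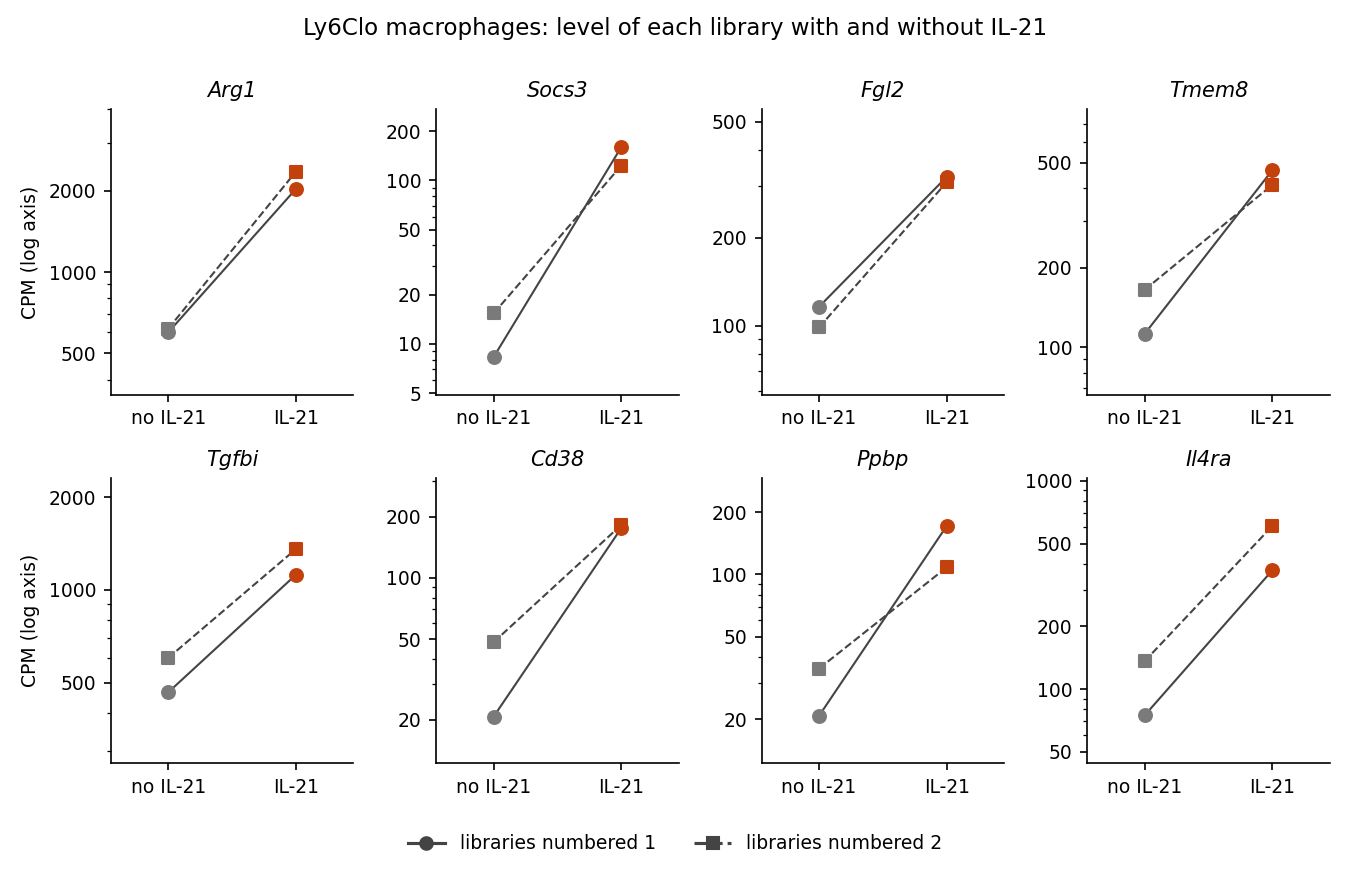
Level in CPM (log axis) of the 7 called genes and of Il4ra in each Ly6Clo library, without IL-21 (grey) and with it (orange), where circles with solid lines join the libraries numbered 1 and squares with dashed lines those numbered 2. Every line climbs: Arg1 goes from 598 to 2031 CPM within number 1 and from 617 to 2354 CPM within number 2, and Il4ra from 74.7 to 372 and from 136 to 606 CPM.

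Of the secreted products, Fgl2 (chromosome 5, 21372642 to 21378374, plus strand) was at 116 and 98.8 CPM without IL-21 and 324 and 311 CPM with it. The 2 stimulated libraries were nearly equal, and the log2 fold change was 1.57 (SE 0.26; edgeR adjusted p = 0.0415), or 1.43 within number 1 and 1.59 within number 2. Tgfbi (chromosome 13, 56609523 to 56639562, plus strand) went from 465 and 601 CPM to 1119 and 1355 CPM, with a log2 fold change of 1.21 (SE 0.22; edgeR adjusted p = 0.0491). The same difference stood within each number, 1.25 and 1.16, although the 3' end of Tgfbi shares a stretch of 69 bases with 3 other genes. Ppbp (chromosome 5, 90768518 to 90770063, plus strand) was at 20.8 and 35.1 CPM without and 172 and 108 CPM with IL-21. Its log2 fold change was 2.20 (SE 0.40; edgeR adjusted p = 0.0491), and the difference was 2.69 within number 1 and 1.46 within number 2, with counting intervals of 1.72 to 4.74 and 0.77 to 2.55 that overlap.

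The other 2 called genes encode cell-surface proteins. Cd38 (chromosome 5, 43868553 to 43912375, plus strand) was at 20.8 and 48.3 CPM (5 and 22 counts) without IL-21 and at 176 and 182 CPM with it. Both stimulated libraries were at the same level, and the log2 fold change was 2.25 (SE 0.41; edgeR adjusted p = 0.0491), or 2.73 within number 1 and 1.78 within number 2. Its 3' end shares up to 79 bases with 5 other genes, Sod2 among them, so part of its counts could belong to those. Tmem8 (chromosome 17, 26113299 to 26123254, plus strand) was at 112 and 165 CPM without and 468 and 412 CPM with IL-21. The log2 fold change was 1.63 (SE 0.28; edgeR adjusted p = 0.0491), with 2.00 within number 1 and 1.29 within number 2. Of the 8 fits that each leave out 1 library, Arg1 and Socs3 passed in 7, Fgl2, Cd38 and Ppbp in 4, Tmem8 in 3 and Tgfbi in 0. Socs3, Cd38 and Ppbp did not pass in limma-voom (adjusted p = 0.307, 0.19 and 0.232), nor Fgl2 and Ppbp in DESeq2 (0.0719 each). The fit without the unstimulated Ly6Clo library numbered 2 called no gene, with 322 at an unadjusted p under 0.05, and the edgeR fit on the 4 Ly6Clo libraries alone also called none, with 171.

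The promoters of Socs3 and Fgl2 are shown because, of the called genes, these 2 carry a sequence that STAT proteins are known to bind. RefSeq windows of 300 bases, 250 before and 50 after a gene's start (GRCm38.p6), were searched for TTCNNNGAA, a pattern that reads the same on both strands. It was found in 2 of the 6 called genes with a window, against 7.83% of the 4140 tested genes with one and 8.30% of all 32851 windows. Tmem8, Tgfbi, Cd38 and Ppbp held no match in this window, and Arg1 had no window. The windows of Socs3 (chr11:117969317-117969616, minus strand, with the match starting 154 bases before the start site) and Fgl2 (chr5:21372423-21372722, plus strand, 36 bases before it) are printed 5' to 3' with the match in capitals. A match describes the letters of the window and does not show that a factor binds there.
Socs3: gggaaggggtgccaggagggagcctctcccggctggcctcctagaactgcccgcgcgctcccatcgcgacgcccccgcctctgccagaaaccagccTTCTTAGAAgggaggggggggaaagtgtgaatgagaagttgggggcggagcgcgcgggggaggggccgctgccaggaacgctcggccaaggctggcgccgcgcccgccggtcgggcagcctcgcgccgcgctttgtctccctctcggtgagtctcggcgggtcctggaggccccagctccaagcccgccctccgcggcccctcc
Fgl2: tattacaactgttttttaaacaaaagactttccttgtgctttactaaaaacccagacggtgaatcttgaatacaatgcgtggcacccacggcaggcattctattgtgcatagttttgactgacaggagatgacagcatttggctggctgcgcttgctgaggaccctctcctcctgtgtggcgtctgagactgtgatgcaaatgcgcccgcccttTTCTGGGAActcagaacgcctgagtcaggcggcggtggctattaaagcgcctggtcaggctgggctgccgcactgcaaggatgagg

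Libraries that shared a replicate number were more alike than libraries that shared a treatment. A chi-square of the counts per degree of freedom, which is near 1 where 2 libraries differ by sampling alone, was 1.78 between the 2 libraries numbered 1 and 2.19 between those numbered 2. It was 4.03 between the 2 unstimulated libraries and 4.05 between the 2 stimulated ones, so no 2 replicates were copies of one library. An edgeR test of number 2 against number 1 over all 8 libraries, adjusted for group and chosen after the values were seen, called 431 genes, 8.2% of those tested. None of the 7 genes called for IL-21 was among them. The unblocked fit counts a difference between the numbers as spread, so it disfavours such genes from the outset. The labels do not say what a number stands for, and the fit above leaves this difference in the spread; with the number as a block, 29 genes passed (27 higher and 2 lower, 0.552%), among them all 7.

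**Figure D2:**
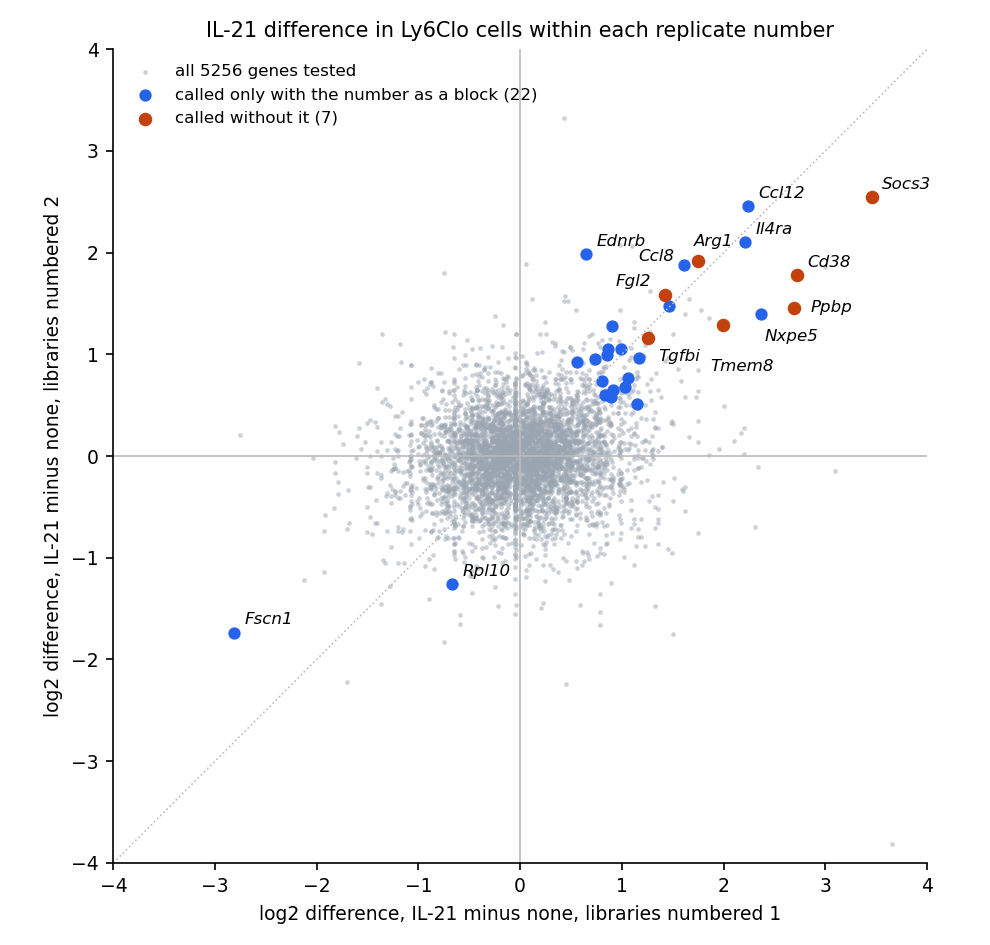
Each point is a gene, placed by its log2 difference (IL-21 minus none) within the libraries numbered 1 (horizontal) and within those numbered 2 (vertical), with the 7 genes called without a block in orange and the 22 called only with it in blue. The cloud of 5256 genes is nearly round, and the coloured genes lie outside its centre with the same sign within both numbers, Socs3 at 3.46 and 2.55. They were called from these same libraries, so their place is a description and not separate support.

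Across all genes the difference within number 1 carried over to number 2 only in part. The differences, computed as log2 CPM with a prior count of 2, had the same sign in 54.1% of the 5256 genes: 1416 (26.9%) were higher and 1426 (27.1%) lower within both numbers. Pearson's r across genes was 0.17 and Spearman's rho 0.13, as a description, since genes are not independent replicates. The likeness went with abundance: r was 0.08 among the 1760 genes with a mean of 10 to 20 counts and 0.64 among the 244 with over 200. Typical differences were small, with a median absolute log2 difference of 0.31 within number 1 and 0.24 within number 2. A log2 difference over 1 in the same direction within both numbers was seen in 25 genes upward and 10 downward.

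Il4ra, the alpha chain of the receptors for interleukin 4 and interleukin 13 (chromosome 7, 125552120 to 125579474, plus strand), came next to the called genes. Its level was 74.7 and 136 CPM without IL-21 and 372 and 606 CPM with it. Both stimulated libraries lay above both unstimulated ones, and the log2 difference was the same within number 1 (2.21) and number 2 (2.10). The log2 fold change of 2.17 (SE 0.40) did not pass the unblocked edgeR test (adjusted p = 0.157), but did pass without a block in DESeq2 (adjusted p = 0.00419), in edgeR with no filter on low counts and in 3 of the 8 fits that leave out 1 library. Il4ra was also higher in number 2 than in number 1 over the 8 libraries, by 0.72 on the log2 scale (edgeR adjusted p = 0.00258).

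The receptor of IL-21 was readable at baseline and its own chain was higher with the cytokine. Il21r was at 99.7 and 87.8 CPM without and 184 and 168 CPM with IL-21, with differences of 0.84 and 0.88 within the numbers (log2 fold change 0.91, SE 0.30), but it did not pass. Stat3 was at 158 and 156 CPM without and 260 and 232 CPM with IL-21, and the groups did not overlap (0.70 and 0.55). Stat5b, with 3 and 7 counts without and 12 and 18 with IL-21, had differences of 1.50 and 1.20, and shares its 3' end with Stat5a. Il2rg and Jak1 had log2 fold changes of -0.03 and -0.27, neither of which passed. Jak3 had 4 to 12 counts per Ly6Clo library and was not tested.

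Chemokine genes had the highest median change of the 29 lists with at least 5 genes tested. Of 18 inflammatory cytokine and chemokine genes tested, 13 were higher and 2 lower within both numbers, with a median log2 fold change of 0.77 against -0.01 over all genes tested; 1, Ppbp, passed. Among all genes tested, 26.9% were higher and 27.1% lower within both numbers, the shares to set beside the counts of every list named here. Several of the chemokine genes also differed between the numbers. Ccl12, a ligand of the monocyte receptor CCR2, was at 16.6 CPM without and 104 CPM with IL-21 among libraries numbered 1, and at 50.5 and 308 CPM among those numbered 2. The log2 difference was 2.24 within number 1 (counting interval 1.12 to 4.62) and 2.46 within number 2 (1.96 to 3.32). Yet Ccl12 was also 1.68 higher in number 2 on the log2 scale (edgeR adjusted p = 7.9e-06), and the unblocked fold change of 2.50 had an SE of 0.89 and did not pass.

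The same held for 2 neighbours of Ccl12 on chromosome 11, Ccl8 and Ccl7, which also encode monocyte chemoattractants. Ccl8 was at 78.9 and 154 CPM without and 256 and 584 CPM with IL-21, with differences of 1.61 and 1.88. For Ccl7 the groups overlapped, with 91.3 and 281 CPM without and 188 and 589 CPM with IL-21, but the differences within the numbers were 0.99 and 1.05. Number 2 exceeded number 1 by 1.34 for Ccl8 and 1.60 for Ccl7. Ccl6 went the other way between the numbers (-0.70 for number 2 against 1) and was at 357 and 184 CPM without and 672 and 458 CPM with IL-21, a difference of 0.90 and 1.28. Ccl5 shows the extreme: it was 2.92 higher in number 2 on the log2 scale, and its levels without (299 and 2032 CPM) and with IL-21 (220 and 1809 CPM) differed little within each number.

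**Figure D3:**
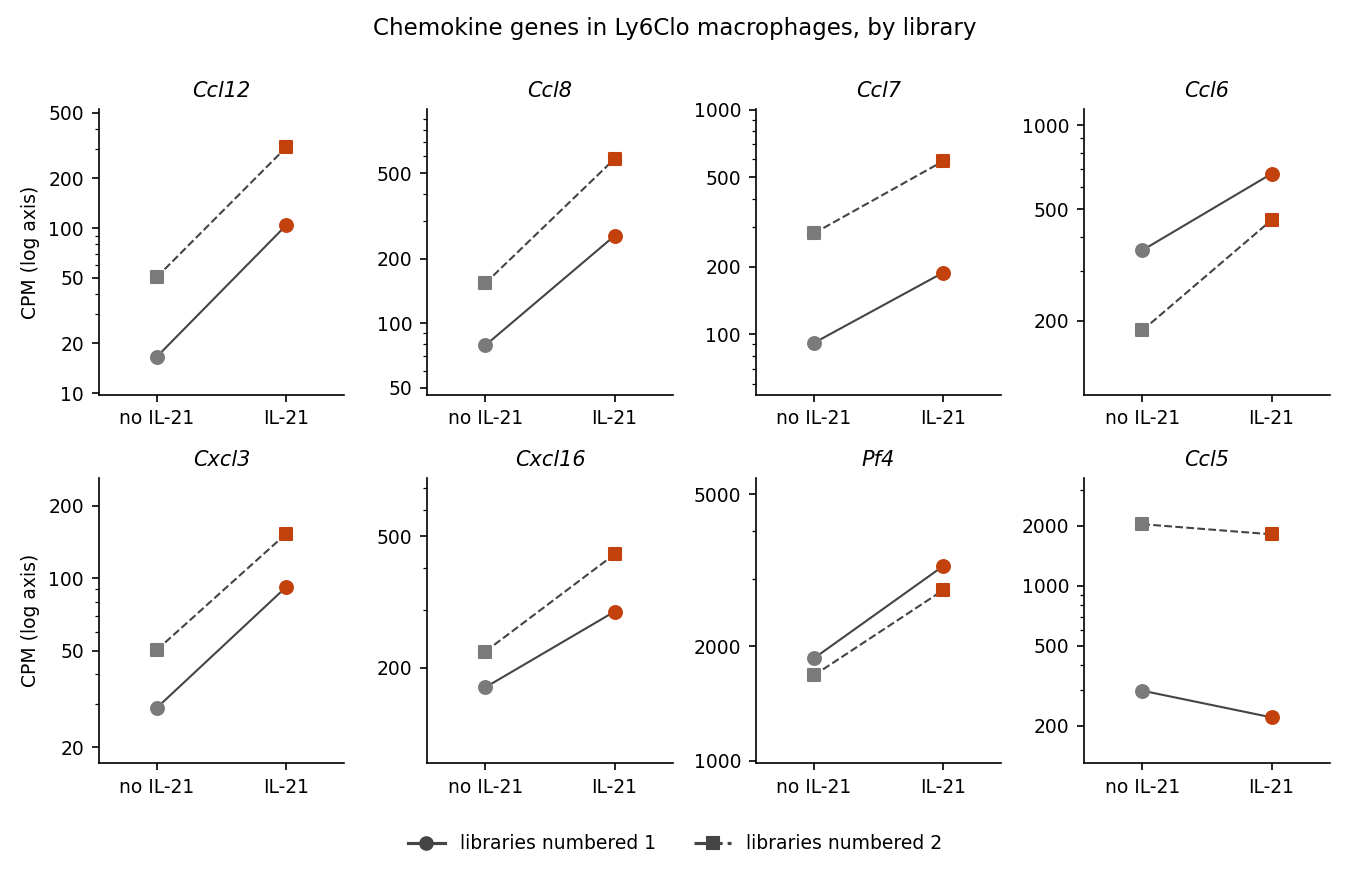
Level in CPM (log axis) of 8 chemokine genes in each Ly6Clo library, drawn as in the plot of the called genes. For Ccl12, Ccl8 and Ccl7 the lines of the numbers run nearly parallel at different heights, and Ccl5 is at 2032 and 1809 CPM within number 2 but at 299 and 220 CPM within number 1.

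Chemokines of the CXC family varied among themselves. Cxcl3, a neutrophil attractant, was at 29.1 and 50.5 CPM without and 91.9 and 153 CPM with IL-21 (differences 1.46 and 1.48; log2 fold change 1.57, SE 0.36; edgeR adjusted p = 0.314). Cxcl16, a membrane-bound ligand of CXCR6, was at 174 and 224 CPM without and 296 and 441 CPM with IL-21 (0.74 and 0.96). Pf4, the platelet factor gene that macrophages also express, was the most abundant of the group, at 1856 and 1675 CPM without and 3238 and 2800 CPM with IL-21 (0.80 and 0.74). None of the 3 passed without the block. In Cxcl10 and Cxcl2, named after their values were seen, the groups overlapped. Cxcl10, an interferon-induced attractant of T cells, was at 4.15 and 76.8 CPM without and 11.99 and 71.5 CPM with IL-21 (0.77 and -0.10 within the numbers), so that it was set apart by number as Ccl5 was. Cxcl2, a neutrophil attractant, was at 29.1 and 54.9 against 28.0 and 66.5 CPM, and its 3' end shares 116 bases with Cxcl3. Because Ppbp and Pf4 are also platelet genes, the platelet list was read as a whole: 7 of its 16 genes, among them Itga2b, Gp1ba, Gp1bb, Gp5, Gp9 and Tubb1, were at 0 in all 4 libraries. Its summed level was 1832 and 1792 CPM without and 3264 and 2922 CPM with IL-21, of which Pf4 made up the greatest part. Il1b, the inflammatory interleukin 1 beta, had 2 and 8 counts without and 0 and 2 with IL-21, too few to set a direction.

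Other receptor and uptake genes differed in both directions, and none passed without the block. Pirb, an inhibitory receptor of myeloid cells, was at 174 and 211 CPM without and 400 and 416 CPM with IL-21 (1.17 and 0.96), although 9 related genes share its 3' end. Dab2, an adaptor of clathrin-mediated uptake, was at 436 and 353 CPM without and 791 and 710 CPM with IL-21 (0.85 and 0.99; log2 fold change 0.93, SE 0.22; edgeR adjusted p = 0.393). In neither gene did the groups overlap. Fcgr2b, the inhibitory Fc gamma receptor, was at 66.4 and 52.7 CPM without and 164 and 111 CPM with IL-21 (1.22 and 0.98), and Fcgr4, an activating one, at 66.4 and 103 against 124 and 177 CPM (0.84 and 0.74). Fcgr2b shares 174 bases of its 3' end with Fcgr3. Of the 19 Fc receptor and phagocytosis genes tested, 9 were higher and 4 lower within both numbers, with a median of 0.17. Of 16 efferocytosis genes 5 were higher and 7 lower, with a median of 0.04. The shares over all genes tested were 26.9% higher and 27.1% lower. Lower within both numbers were Axl, a receptor for apoptotic cells (-1.68 and -0.66), and the beta-glucan receptor Clec7a (-1.06 and -0.47).

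Mrc1, the mannose receptor and a marker of alternative activation, had overlapping groups, at 257 and 87.8 CPM without and 476 and 190 CPM with IL-21. Within each number it was higher with the cytokine, by 0.87 and 1.05, and number 2 was 1.23 lower than number 1. F13a1, the coagulation factor XIII subunit that macrophages express, had the same form, at 99.7 and 30.7 CPM in unstimulated and 220 and 71.5 CPM in stimulated libraries, with differences of 1.09 and 1.06. Ednrb, the endothelin B receptor, was at 33.2 and 32.9 CPM without and 56.0 and 150 CPM with IL-21. Its difference was 0.65 within number 1 (8 and 14 counts) and 1.98 within number 2. The counting intervals, -0.60 to 2.21 and 1.36 to 3.11, overlap. Ms4a6d, a 4-pass membrane protein, was at 972 and 1857 CPM without and 1811 and 2780 CPM with IL-21 (0.89 and 0.58).

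Among the remaining genes that passed only with the block were 2 fatty acid binding proteins. Fabp5 was at 1877 and 2153 CPM without and 3354 and 3265 CPM with IL-21 (0.84 and 0.60), and Fabp4 at 365 and 406 against 755 and 653 CPM (1.03 and 0.68). The groups did not overlap for either gene, and neither passed (edgeR adjusted p = 0.773 and 0.486). Across the 29 lipid handling genes tested, 8 were higher and 10 lower within both numbers, and the median was -0.02. These are shares of 27.6% and 34.5%, against 26.9% and 27.1% of all genes tested. Ctsc, the lysosomal protease that activates granule serine proteases, was at 639 and 707 CPM without and 1211 and 1111 CPM with IL-21 (0.91 and 0.65), while the 46 lysosome and cathepsin genes tested had a median of -0.01. Gda, a guanine deaminase, was at 257 and 222 against 544 and 382 CPM (1.06 and 0.77), and Wfdc17, a small secreted protein, at 374 and 424 against 839 and 609 CPM (1.15 and 0.52). The 3' end of Ctsc shares up to 78 bases with 37 other genes, that of Gda up to 77 with 131, and that of Fabp5 158 with 1. Nxpe5 was at 33.2 and 28.5 CPM without and 200 and 86.3 CPM with IL-21, and shares its 3' end with 1 other gene. Together with Il4ra, Ccl12, Ccl8, Ccl7, Ccl6, Cxcl3, Cxcl16, Pf4, Pirb, Dab2, Mrc1, Ednrb and Ms4a6d, these 6 genes passed with the number as a block and not without it. The other 3 of the 22 were Picalm, a clathrin assembly protein (0.56 and 0.93 within the numbers), and the lower genes Fscn1 and Rpl10. Of the 22 genes that passed only with the block, 8 also differed between the numbers, against 8.2% of all genes tested. Passing only with the block favours such genes, so this count is a description.

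Among lower genes, Fscn1, which encodes the actin-bundling protein fascin, had one of the greatest differences. It was at 41.5 and 90.0 CPM (10 and 41 counts) without IL-21 and at 0 and 22.2 CPM (0 and 9 counts) with it. The log2 difference within number 2 was -1.74 (counting interval -3.25 to -0.96), and within number 1 it is bounded by an upper limit of -1.22. The log2 fold change of -2.35 (SE 0.67) did not pass without the block (edgeR adjusted p = 0.773) and passed with it (adjusted p = 0.0367). Fascin is also a marker of mature dendritic cells, and of the 12 dendritic cell markers Cd209a, Clec9a, Itgae and Siglech were at 0 in all 4 libraries. The summed level of that list was 3147 and 4632 CPM of the total without and 2691 and 4747 CPM with IL-21, nearly all of it Bst2, an interferon-induced gene that macrophages also express. Without Bst2 the sum was 93.4 and 207 CPM without and 48.4 and 83.3 CPM with IL-21, lower within both numbers, with Fscn1 included. Ccr7, the homing receptor of mature dendritic cells, had 4 and 29 counts without and 0 and 6 with IL-21, and Xcr1 had 1 and 7 against 0 and 2. Flt3 had 1 and 2 against 0 and 0, Batf3 1 and 3 against 1 and 2, and Zbtb46 1 and 2 against 2 and 2. Clec4b1 was not lower, with 6 and 16 counts without and 10 and 16 with IL-21. The part of dendritic cells in the result was not tested.

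Rpl10, a ribosomal protein gene, had the smallest p among the genes that were lower with IL-21. It was at 316 and 347 CPM without and 196 and 140 CPM with IL-21 (-0.67 and -1.26 within the numbers, SE of the log2 fold change 0.24; edgeR adjusted p = 0.396). With the number as a block it passed (edgeR adjusted p = 0.00777), and it and Fscn1 were the 2 genes called lower by that fit. Its 3' end matches 13 other genes over up to 501 bases, so its counts depend on how reads were shared among copies. Of the 74 ribosomal protein genes tested, 34 were lower and 12 higher within both numbers, and the median was -0.07; Rps7 and Rps23, which also have near-identical copies, had log2 fold changes of -0.79 and -0.47. The median over all genes was -0.01.

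Other genes that were lower within both numbers had few counts, and none passed. Lsp1, a leukocyte actin-binding protein, had 10 and 22 counts without and 2 and 2 with IL-21. Gpatch4 was at 87.2 and 63.6 CPM without and 32.0 and 22.2 CPM with IL-21 (-1.28 within each number). Dkc1, the pseudouridine synthase dyskerin, was at 91.3 and 48.3 against 36.0 and 19.7 CPM (-1.20 and -1.05), and Pabpc4, a poly(A)-binding protein, at 70.6 and 32.9 against 24.0 and 12.3 CPM (-1.33 and -1.05). The groups did not overlap in these genes, but each rests on 5 to 29 counts per library apart from Lsp1. Serpinb6b (-1.93 and -1.14), Fbxo7 (-1.35 and -1.03) and the amino acid transporter Slc38a1 (-0.94 and -1.08) were also lower within both numbers, and the last 2 had overlapping groups. Dio2, the deiodinase that activates thyroid hormone, Smim11, Phf21a and the ubiquitin ligase subunit Ddb1 had log2 fold changes of -1.87, -1.36, -1.24 and -0.87. Without the unstimulated library numbered 2 that of Dio2 was -0.70, and over the omissions that of Smim11 lay between -1.80 and -0.89. At good depth, a smaller difference was seen in Igf1, a growth factor of repair macrophages, at 1001 and 1091 CPM without and 735 and 779 CPM with IL-21 (-0.44 and -0.48), which did not pass.

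A gene can also differ in opposite directions within the numbers, as 2412 genes did, and 2 had no counts in either library of number 1. Among genes with a mean of at least 10 counts, the widest split was in Gm47628, whose 3' end matches 2 other genes, with 0 and 41 counts without and 20 and 0 counts with IL-21. Id1, an inhibitor of helix-loop-helix factors, was at 108 and 39.5 CPM without and 44.0 and 81.3 CPM with IL-21 (-1.18 and 0.93). Rbck1, a subunit of the linear ubiquitin ligase, differed by -1.36 and 1.20, Gm17132 by 1.11 and -1.07, and Slc25a45 by -1.59 and 0.92. In each of these the unblocked log2 fold change was small against its error.

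Read by the gene lists, the STAT3-linked list came second to the chemokines. Of its 21 genes tested, 14 were higher and 3 lower within both numbers, and the median was 0.41; 2, Socs3 and Fgl2, passed. Others on this list were Junb, an AP-1 factor (166 and 189 CPM unstimulated, 232 and 283 CPM stimulated), and Bcl3, a nuclear partner of NF-kappaB (0.24 and 1.31 within the numbers). Tnfaip3, the NF-kappaB inhibitor A20, was lower, at 49.8 and 70.2 CPM without and 24.0 and 39.4 CPM with IL-21. The lists were drawn up with earlier results of these libraries known, so their counts are a description.

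**Figure D4:**
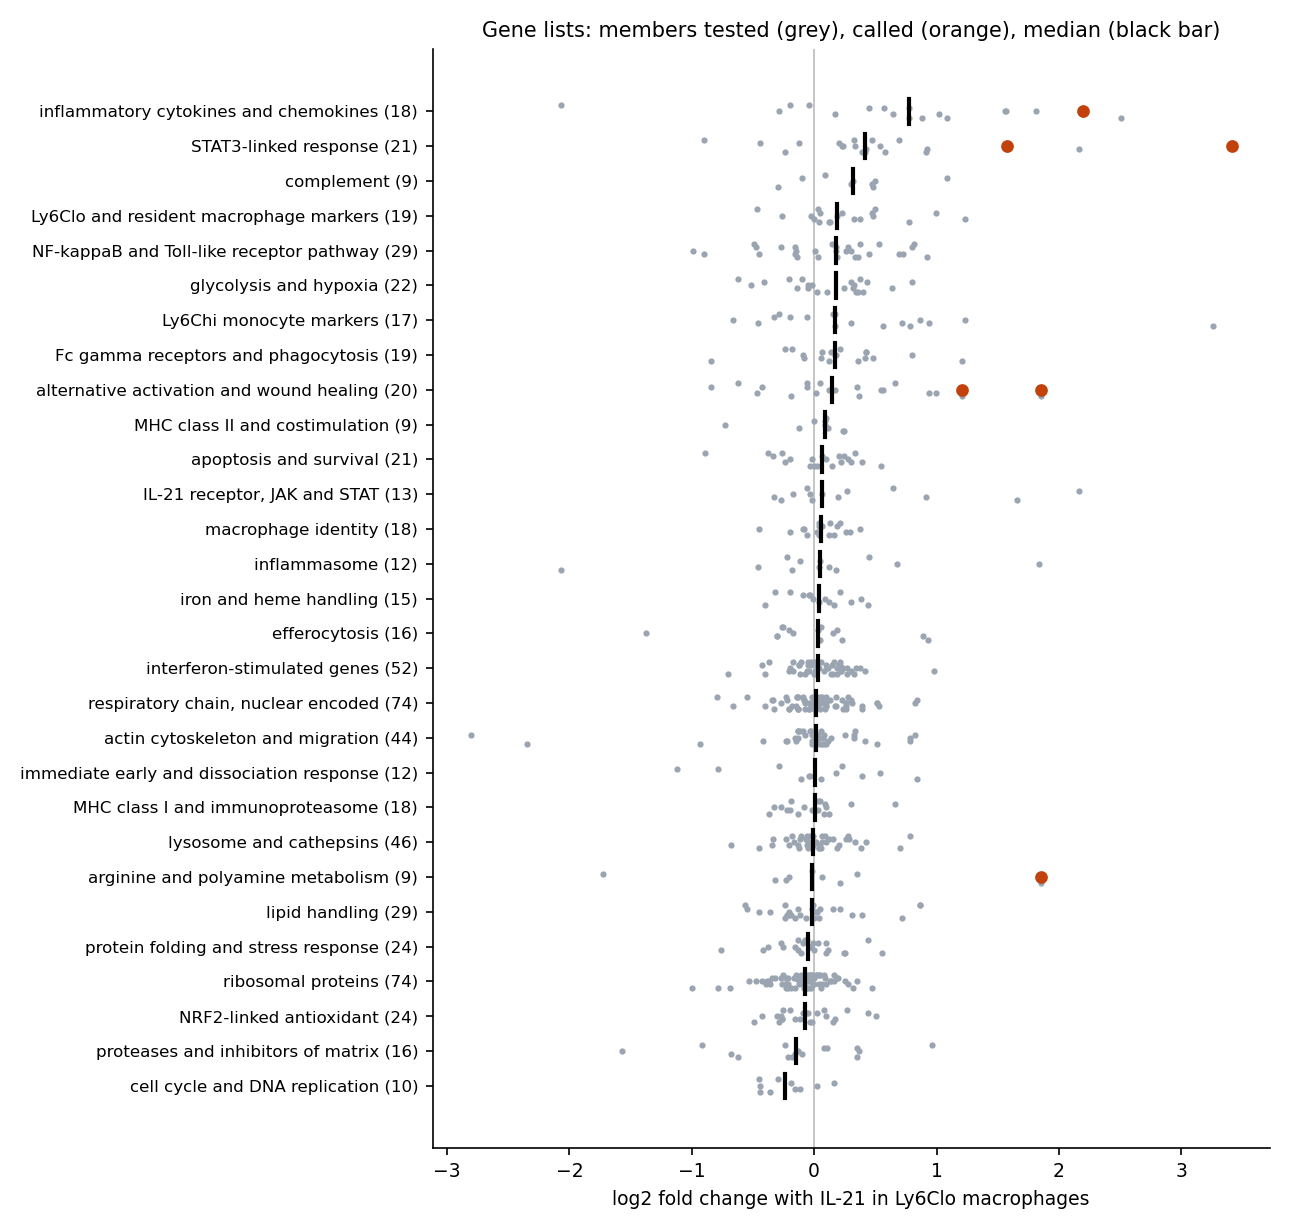
Log2 fold change with IL-21 in Ly6Clo macrophages of each tested member (points) of 29 gene lists, with the number tested in brackets, called members in orange and the median as a black bar. The inflammatory chemokine list (median 0.77) and the STAT3-linked list (0.41) lie farthest to the right, and cell cycle genes (-0.24) farthest to the left.

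Repair and resident macrophage genes gave a divided picture. Of 20 genes of alternative activation and wound healing tested, 11 were higher and 3 lower within both numbers, with a median of 0.14, and Arg1 and Tgfbi passed. Clec7a, the beta-glucan receptor dectin-1, was at 307 and 149 CPM without and 144 and 106 CPM with IL-21, and Mmp12, the macrophage elastase, was at 722 and 226 against 376 and 232 CPM. Chil3, a chitinase-like protein, had 1 and 11 counts without and 11 and 10 with IL-21, so its level without IL-21 could not be set. Of the 19 Ly6Clo and resident macrophage markers tested, 11 were higher and 2 lower within both numbers, with a median of 0.19. The 3 genes of complement C1q were each higher by a similar small step: C1qa by 0.33 and 0.60 within the numbers, C1qb by 0.51 and 0.42 and C1qc by 0.45 and 0.54. Of all 9 complement genes tested, 7 were higher and 1 lower, and none passed.

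Markers of Ly6Chi monocytes were more often higher than lower. Of 17 tested, 11 were higher and 4 lower within both numbers, with a median of 0.17. These are shares of 64.7% and 23.5%, against 26.9% and 27.1% of all genes tested. Ly6c2 was at 45.7 and 74.6 CPM without and 11.99 and 59.1 CPM with IL-21, and Ccr2, the receptor of monocyte chemoattractants, at 116 and 26.3 against 168 and 61.6 CPM. In both genes the groups overlapped and the log2 fold change was within 2 SE of 0. Cell cycle genes were the list with the lowest median (-0.24): of 10 tested, 0 were higher and 5 lower within both numbers, and Tubb5, E2f1 and H2afz had log2 fold changes of -0.45, -0.44 and -0.19.

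Interferon-stimulated and antigen presentation genes stayed near the median of all genes. Of 52 interferon-stimulated genes tested, 18 were higher and 9 lower within both numbers and 25 had opposite signs, with a median of 0.03. Ifi27l2a was at 432 and 691 CPM without and 600 and 863 CPM with IL-21, and Sp100 at 357 and 415 against 428 and 540 CPM. MHC class I and immunoproteasome genes had a median of 0.01 over 18 genes, with 12 of opposite sign. Among 9 MHC class II and costimulation genes the median was 0.09; H2-Eb1, a class II beta chain, was at 266 and 173 CPM without and 116 and 140 CPM with IL-21, while H2-Ab1 was at 515 and 413 against 544 and 446 CPM. None of these genes passed.

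Transcripts of several other cell types were scarce, but not every list was low. Neutrophil markers summed to 1186 and 615 CPM of the total without and 1154 and 774 CPM with IL-21. Most of this was Mmp8, and the rest summed to 66.1 and 108 against 74.4 and 142 CPM. S100a8 had 11 and 35 counts against 14 and 42, and Ly6g and S100a9 were at 0 in all 4 libraries. NK cell markers summed to 284 and 1925 against 205 and 1672 CPM, nearly all of it Ccl5. No B cell, mast cell, cardiomyocyte or erythrocyte marker had enough counts to be tested. Of T cell genes, Cd3g, Trac, Trbc1, Trbc2 and Lck were at 0 in all 4 libraries, and Il7r, the tested one, was at 673 and 865 CPM without and 660 and 863 CPM with IL-21. Cardiomyocyte genes summed to 2 and 11 counts without and 45 and 14 with IL-21. Fibroblast markers summed to 272 and 255 CPM of the total without and 324 and 311 CPM with IL-21, with 5 of 16 at 0 in all 4. Gsn, which encodes the actin-severing protein gelsolin, made up the greatest part without IL-21 and was lower with it (249 and 219 against 190 and 155 CPM of the total). The rest of the list summed to 23.3 and 35.2 CPM without and 134 and 155 CPM with IL-21, so that both stimulated libraries were well above both unstimulated ones. Among them Col1a2 had 1 and 6 counts without and 7 and 21 with IL-21, and Col3a1 had 3 and 3 against 10 and 14. Col1a1 had 1 and 2 against 4 and 13, and Sparc, a collagen-binding matrix protein, 1 and 2 against 7 and 12. Endothelial markers summed to 412 and 602 CPM without and 804 and 786 CPM with IL-21, and Fabp4, which is on that list and in macrophages, made up the greatest part; the rest summed to 70.0 and 219 against 100.5 and 189 CPM. The part of these cells in the results was not tested.

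The IL-21 effect in Ly6Clo cells did not differ from that in Ly6Chi cells past the test for any gene (0% called by edgeR, 92 genes at an unadjusted p under 0.05, and 0 calls by DESeq2 or limma-voom). For Arg1 the log2 fold changes were 1.85 (SE 0.23) in Ly6Clo and 1.82 (SE 0.23) in Ly6Chi cells, and their difference was 0.03 (SE 0.32). For Tmem8 they were 1.63 and 1.76. Fgl2 was 1.57 in Ly6Clo and 0.48 in Ly6Chi cells, a difference of 1.09 (SE 0.37) that did not pass. Socs3 started higher in unstimulated Ly6Chi cells, at 41.0 and 38.1 CPM against 8.30 and 15.4 CPM in Ly6Clo, and the difference of the effects, 1.27, had an SE of 0.66. Rpl10 had the smallest p for a difference: it was lower with IL-21 in Ly6Clo cells, whereas Ly6Chi cells had 201 and 179 CPM without and 354 and 343 CPM with IL-21 (difference -1.87, SE 0.34, edgeR adjusted p = 0.394). With the number as a block this difference passed, as the only gene to do so (-1.90, SE 0.30, edgeR adjusted p = 0.00429).

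**Figure D5:**
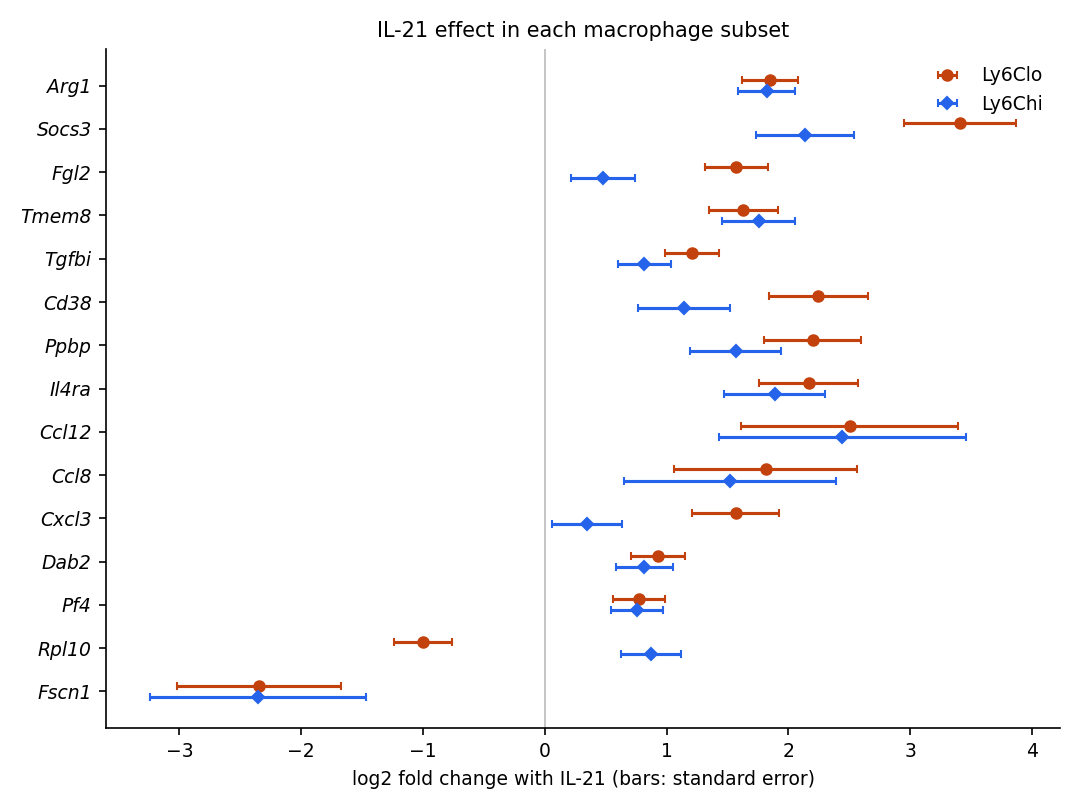
Fitted log2 fold change with IL-21 (horizontal axis, bars are 1 standard error) in Ly6Clo (orange circles) and Ly6Chi (blue diamonds) macrophages for the 7 called genes and 8 further genes named in the text. Arg1 is at 1.85 and 1.82, Fgl2 at 1.57 and 0.48, and Rpl10 lies on opposite sides of 0, at 0.87 in Ly6Chi cells.

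Further genes with small p for this difference had low counts, and none passed. Mefv, which encodes the inflammasome sensor pyrin, was at 8.30 and 15.4 CPM without and 39.97 and 51.8 CPM with IL-21 in Ly6Clo cells (1.63 and 1.40 within the numbers). In Ly6Chi cells it was at 65.6 and 76.3 CPM without and 60.2 and 69.5 CPM with IL-21. Rab29 and Zc3h12d were higher with IL-21 in Ly6Clo (log2 fold change 0.61 and 1.17) and lower in Ly6Chi cells (-1.02 and -0.80). Cnn2, an actin-binding calponin, and Man1a, a mannosidase of the Golgi, had the opposite form, with -0.93 and -0.61 in Ly6Clo against 1.06 and 1.60 in Ly6Chi cells. Gpatch4 and Phf21a shared that form, with -1.47 and -1.24 in Ly6Clo against 0.84 and 0.79 in Ly6Chi cells. Col3a1 and Col1a2, which are on the fibroblast list, had 2.02 and 2.03 in Ly6Clo against -1.81 and -1.56 in Ly6Chi cells.

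The counts set what could be seen. The median SE of the log2 fold change was 0.45 among genes with a mean of 10 to 20 counts, 0.27 among those with 50 to 100 and 0.23 among those with over 200. Of the 7 calls, 3 had a mean of 20 to 50 counts, 2 of 50 to 100 and 2 of over 200. A 2-fold change was thus little more than 2 SE in the first of these bands and over 4 SE in the last. Genes below the count filter, Jak3 and Mmp9 among them, were not tested.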

How the data were processed

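Values were expected counts per Ensembl gene (mm10), deposited by the authors 1 table per library with 53342 genes, and 53.3 to 59.7% of the values above 0 were not whole, at a tolerance of 0.001. The submitters' processing notes name mm10 and DESeq2. The aligner, the counting program and any use of molecular identifiers or strand remain not given in the sources used here, so intervals cover counting error only, and antisense or near-identical genes could share reads. Gene symbols and coordinates are from GENCODE M21, which held 53237 of the identifiers.

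Counts were rounded, since the design assumed whole counts, filtered with filterByExpr (minimum count 10, minimum total 15; 5256 genes), scaled by TMM and fitted with edgeR 4.0.16 (R 4.3.3) as 4 group means over 8 libraries, with the robust quasi-likelihood test and Benjamini-Hochberg adjustment over all genes (called under 0.05). CPM in the text use TMM-scaled totals of these genes unless said to be of the total. Differences within a number use a prior count of 2, which draws low genes toward 0, and their exact Clopper-Pearson intervals are at 95%. Alternatives were limma-voom (limma 3.58.1), DESeq2 1.42.0, other scalings, filters and library sets. The last 500 bases of each named gene were compared with all transcripts by BLAST 2.17.0 (at least 60 bases at 97% identity). Matches are not given at every gene. Hsp90aa1 and Pkm each matched 3 other genes over up to 500 bases, and Pabpc4 matched 4 over up to 495. Sp100 matched 161 over up to 399, and Ndufs3 matched 2 over up to 426. Sat1, Il2rg, H2afz, Uqcr11, Il7r, Dkc1, Col1a2 and Gm17132 also had matches. Scripts were tested on simulated data that held no difference between the replicate numbers.

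Genes were named by rule: all called genes; the 8 smallest p values and the 8 most alike within-number differences per direction with a mean of at least 10 counts; up to 20 genes called only with the block; up to 3 per list and 5 per direction for the difference from Ly6Chi; 5 with opposite signs; and fixed genes of the IL-21 pathway and macrophage states, some of which are not reported here. Members and lists were chosen with earlier results of these data known.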

Additional observations from a re-analysis of the deposited data

How the results depend on the processing

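Of 7 genes higher with IL-21 in Ly6Clo cells, the count became 3 with library totals alone or unrounded values (Arg1, Fgl2 and Socs3), 2 with a mean count of at least 20 (Arg1 and Socs3), 6 with DESeq2 (Fgl2 and Ppbp lost, Il4ra gained), 4 with limma-voom (Arg1, Fgl2, Tgfbi and Tmem8), 0 with the 4 Ly6Clo libraries only, 15 with no filter and 27 with the replicate block. Leaving out 1 library each gave 0 to 7, with 0 without the unstimulated Ly6Clo library numbered 2, 3 without the unstimulated one numbered 1 or the stimulated one numbered 2, and 4 without the stimulated one numbered 1 or the stimulated Ly6Chi one numbered 2; an arm left with 1 library was assumed to vary like the others. The count lower was 0, and became 1 with no filter (Fscn1), 2 with the replicate block (Fscn1 and Rpl10) and 0 to 1 over the omissions. The count that differed from Ly6Chi was 0, and became 1 with no filter and 1 with the replicate block (Rpl10). The causes were not tested. Number 2 minus 1 correlated at 0.23 to 0.41 between groups, highest between the Ly6Clo groups; with 2 pairs and no label, numbers were not taken as pairs.

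All 7 called genes stayed higher under every setting. In each, both stimulated libraries lay above both unstimulated ones, and the calls rest on these same values, so this is a description. The absence of called genes among those that moved, given below, is a description for the same reason. Over the omissions, these log2 fold changes changed sign: Ccl5 -2.42 to 1.79, Ccl7 -0.0502 to 2.13, Ccr2 -0.079 to 2.04, Cxcl10 -1.94 to 3.35, Cxcl2 -0.66 to 0.79, Fbxo7 -3.54 to 0.0074, Gm17132 -0.92 to 0.78, Gm47628 -7.00 to 6.17, H2-Ab1 -0.0497 to 0.27, Id1 -0.71 to 0.73, Il2rg -0.28 to 0.37, Il7r -0.22 to 0.195, Mmp12 -1.26 to 0.41, Rbck1 -1.29 to 0.98 and Slc25a45 -1.47 to 0.59. Id1 was also 0.0169 with the replicate block and 0.10 with limma-voom, Cxcl10 0.0309 with DESeq2 and 0.0982 with limma-voom, Il7r 0.00051 with no filter, and Slc25a45 -0.00853 with library totals and -0.11 with DESeq2. Of 108 genes named, 56 changed sign or moved by over 1.5 times in at least 1 omission, 0 of them called; wide ranges were those of Fscn1 (-7.26 to -1.62), Dio2 (-2.34 to -0.70), Ednrb (0.76 to 2.17), F13a1 (0.28 to 2.17) and Slc38a1 (-2.31 to -0.32). Library totals alone shifted the median of all genes to -0.04.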

Other observations

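Other gene groups of Ly6Clo macrophages showed no member past the test with IL-21 (edgeR, adjusted p under 0.05), and their medians were within 0.2 of 0. Glycolysis and hypoxia genes had a median log2 fold change of 0.18 over 22 genes, with 7 higher and 4 lower within both numbers; Pkm, the pyruvate kinase of macrophages, was at 835 and 812 CPM without and 1019 and 1195 CPM with IL-21. Nuclear-encoded respiratory chain genes had a median of 0.02 over 74 genes, with Uqcr11 at 0.83 and Ndufs3 at -0.79. NF-kappaB and Toll-like receptor genes had a median of 0.18 over 29 genes; Myd88, the adaptor of most Toll-like receptors, was at 87.2 and 140 CPM without and 196 and 192 CPM with IL-21. Lysosome and cathepsin genes had a median of -0.01 over 46 genes, and Neu1, a sialidase, was at 170 and 134 CPM without and 99.9 and 88.7 CPM with IL-21. Protein folding genes had a median of -0.05 over 24 genes. Hsp90aa1 and Hsp90ab1, the cytosolic HSP90 chaperones, had log2 fold changes of -0.76 and -0.37, and the 3' end of Hsp90aa1 matches 3 other genes. Efferocytosis genes had a median of 0.04 over 16 genes, and Axl, a receptor for apoptotic cells, had 16 and 16 counts without and 4 and 8 with IL-21.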
